A study of Mus musculus with 51 samples.

Results

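The mitochondrial respiratory chain is built from nuclear and mitochondrial gene products, and the genes described here are its nuclear subunit genes. They were chosen by symbol, as every gene whose symbol starts with Nduf, Uqcr, Cox4, Cox5, Cox6, Cox7, Cox8 or Atp5, or is Sdha, Sdhb, Sdhc or Sdhd. Of 16593 genes with a named probe on the array, 85 met this rule: 40 of complex I, 3 of complex II, 8 of complex III, 18 of complex IV and 16 of complex V, the ATP synthase. The letters also took in the complex I assembly factors Ndufaf1, Ndufaf3, Ndufaf4, Ndufaf5 and Ndufaf7, the pseudogene symbol Ndufs5-ps, and Ndufa4, which is named after complex I but is now placed in complex IV. Sdha, the flavoprotein of complex II, was not analysed here. Each gene was read by its brightest probe.

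Complexes I and II pass electrons from NADH and succinate to ubiquinone, complex III hands them to cytochrome c, and complex IV reduces oxygen. The proton gradient built on the way drives ATP synthase. Several subunits of complex IV come in a widely expressed form and a second form known from muscle, heart, lung or testis, and pluripotent stem cells are known for a strong reliance on glycolysis.

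The series followed gene expression during the reprogramming of mouse fibroblasts by transgenes for Oct4, Sox2, Klf4 and c-Myc, with RNA from 51 samples on Illumina MouseRef-8 v2.0 beadarrays. All samples carried the label rtTA mouse, the strain whose transactivator switches the factors on with doxycycline. The clones were kept in doxycycline and sampled at day 16, 1 array for each of 6 lines labelled F-class (clones 1, 2, 6, 7, 13 and 27) and 22 lines labelled C-class. Clone 1 was sampled again at day 30. Each clone is 1 line grown from reprogrammed cells, and the labels do not say how its class was assigned. A secondary reprogramming of cells labelled 1B gave 1 array each at days 2, 5, 8, 11, 16 and 18, of which the last pair is labelled F-class. The 2 induced pluripotent stem cell (iPSC) lines, 1 secondary and 1 primary, were grown without doxycycline, and both are also labelled 1B. The 2 embryonic stem cell (ESC) arrays are labelled as replicates. The 2 fibroblast arrays are primary fibroblasts of embryonic day 15.5 and day 0 of the secondary course. Cells labelled Tet-Myc, 2 lines, were sampled 48 h after doxycycline was withdrawn and with doxycycline. An unnamed inhibitor of histone deacetylases (HDACi) was given to F-class cells, with 2 arrays each at 0, 24 and 48 h.

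Levels below are normalized log2 intensities, so a difference of 1 is a 2-fold change, and they are compared between arrays and never between genes. The arrays detected 46.6% to 53.4% of probes, and no 2 arrays were identical. The deposited intensities had 1 decimal on 31 arrays, among them the 28 day 16 clones, the primary fibroblasts and ESC replicate 1, and several decimals on the other 20, among them the day 0 fibroblasts, ESC replicate 2, both iPSC lines and every Tet-Myc, HDACi and secondary course array. This number format therefore ran between the 2 arrays of the fibroblast and ESC groups. More than 2-fold apart were 7 of 78 tested members between the fibroblast arrays and 6 between the ESC arrays, against 12.8% and 17.0% of all genes tested. Between the iPSC arrays, which share a number format, 2 of 78 members and 2.38% of all genes were this far apart. Fibroblast markers were high on the fibroblast arrays (mean 11.60 and 12.24 over 7 genes, all detected), and pluripotency markers were high in ESC (13.09 and 13.30 over 6 genes) and iPSC (12.32 and 12.52). ESC replicate 1 also carried macrophage and fibroblast transcripts, with means of 8.50 and 9.68 against 5.28 and 7.24 in ESC replicate 2. Fewer cells of a type and less RNA per cell cannot be told apart in these bulk samples.

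The start sites of the genes were read from RefSeq (build GRCm38.p6), from which 75 promoters of 300 bases around the start, belonging to 70 of the 85 members, were used. Motifs were searched by letters on both strands. The strict site of the nuclear respiratory factor NRF1, GCGCA followed directly by TGCGC, stood in 8% of the members' promoters and 0.971% of all 32851 promoters. The relaxed site, GCGCA and GCGC with any base between them, includes every strict match, and its shares were 22.7% and 4.6%. The letters CCGGAAG, known from ETS factors such as GABPA, stood in 22.7% of the members' promoters and 8.86% of all. The YY1 letters AAGATGGC stood in 13.3% and 2.75%, and the E-box CACGTG, which Myc and other factors can bind, in 9.33% and 7.15%. Of the promoters printed, 3 have a strict NRF1 match, and those of Cox7a1 and Cox6b2, the genes with the largest rises, held none of the 5 motifs in this window. Capitals mark matches to the NRF1 motifs, and a match is only a description of the letters.
Ndufaf4 chr4:24897833-24898132, forward strand: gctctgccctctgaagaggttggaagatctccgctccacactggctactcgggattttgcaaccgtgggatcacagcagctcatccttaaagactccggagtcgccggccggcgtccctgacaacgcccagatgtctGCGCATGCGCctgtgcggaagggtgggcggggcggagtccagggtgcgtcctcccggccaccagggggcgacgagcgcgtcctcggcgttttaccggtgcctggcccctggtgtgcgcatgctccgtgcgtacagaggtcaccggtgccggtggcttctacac
Atp5g2 chr15:102670998-102671297, reverse strand: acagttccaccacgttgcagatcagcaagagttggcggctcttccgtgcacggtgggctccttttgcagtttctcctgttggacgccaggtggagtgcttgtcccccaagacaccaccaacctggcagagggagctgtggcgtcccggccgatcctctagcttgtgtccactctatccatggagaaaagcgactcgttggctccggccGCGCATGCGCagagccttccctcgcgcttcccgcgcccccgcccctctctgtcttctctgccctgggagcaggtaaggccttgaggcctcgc
Uqcrc1 chr9:108936398-108936697, forward strand: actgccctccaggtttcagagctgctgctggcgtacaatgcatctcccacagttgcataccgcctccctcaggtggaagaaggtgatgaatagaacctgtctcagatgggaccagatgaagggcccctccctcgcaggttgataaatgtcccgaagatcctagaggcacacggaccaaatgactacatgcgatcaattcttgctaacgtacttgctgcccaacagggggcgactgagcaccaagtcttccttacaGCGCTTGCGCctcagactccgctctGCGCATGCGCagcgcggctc
Cox7a1 chr7:30183921-30184220, forward strand: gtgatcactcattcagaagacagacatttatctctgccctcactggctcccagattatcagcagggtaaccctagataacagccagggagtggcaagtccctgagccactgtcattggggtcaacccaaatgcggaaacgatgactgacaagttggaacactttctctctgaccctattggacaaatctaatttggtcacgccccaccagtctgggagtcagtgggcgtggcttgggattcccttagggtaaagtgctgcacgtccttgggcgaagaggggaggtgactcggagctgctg
Cox6b2 chr7:4753045-4753344, reverse strand: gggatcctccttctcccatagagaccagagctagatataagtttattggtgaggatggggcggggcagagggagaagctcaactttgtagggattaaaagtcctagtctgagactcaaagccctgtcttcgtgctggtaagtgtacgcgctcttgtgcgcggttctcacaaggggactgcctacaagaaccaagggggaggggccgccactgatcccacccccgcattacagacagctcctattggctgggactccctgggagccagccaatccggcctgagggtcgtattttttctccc
The strict match lay at position -113 from the start in Ndufaf4, at -42 in Atp5g2 and at 30 in Uqcrc1. The strict NRF1 motif was also found in Atp5k, Cox6a1 and Ndufaf5.

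Of the 85 members, 73 were detected on all 51 arrays. The brightest member of each complex was detected on every array: Atp5b, the catalytic beta subunit of ATP synthase, ranged from 15.13 to 15.90, Uqcr10 of complex III from 13.93 to 15.13, Ndufa4 from 13.58 to 15.42, Cox7c of complex IV from 13.70 to 14.87, and Sdhc, a membrane anchor of complex II, from 11.48 to 13.41. Not detected on any array were Atp5k, Cox7b2, Cox8b, Cox8c, Ndufs1 and Uqcrq. Uqcrfs1, the Rieske iron-sulfur protein of complex III, was detected on 2 arrays and Cox4i2 on 4. Since the core subunits Ndufs1 and Uqcrfs1 belong to every working chain, a probe below background here is only a probe without signal.

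The members varied little between clones. The median SD over the 22 C-class clones was 0.13 for the 78 tested members, 0.18 for the 2595 tested genes at least as bright as the members' lower quartile and 0.26 for all 11046 tested genes. The corresponding medians over the 6 F-class clones were 0.11, 0.14 and 0.21. The median levels of these sets were 12.59, 11.36 and 7.83, so the sets were not matched in brightness, and its part in the spread was not tested. The mean over the 73 members detected everywhere ran from 12.03 to 12.17 in F-class clones, from 11.98 to 12.24 in C-class clones, was 11.86 and 12.06 in iPSC, 12.06 and 11.99 in ESC, and was 11.87 and 11.81 in fibroblasts. Every clone thus lay above both fibroblast arrays on this mean. The same mean over all genes detected everywhere was lowest on the day 0 fibroblast array, at 9.74, and highest in Tet-Myc line 1 with doxycycline, at 9.94.

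**Figure D1:**
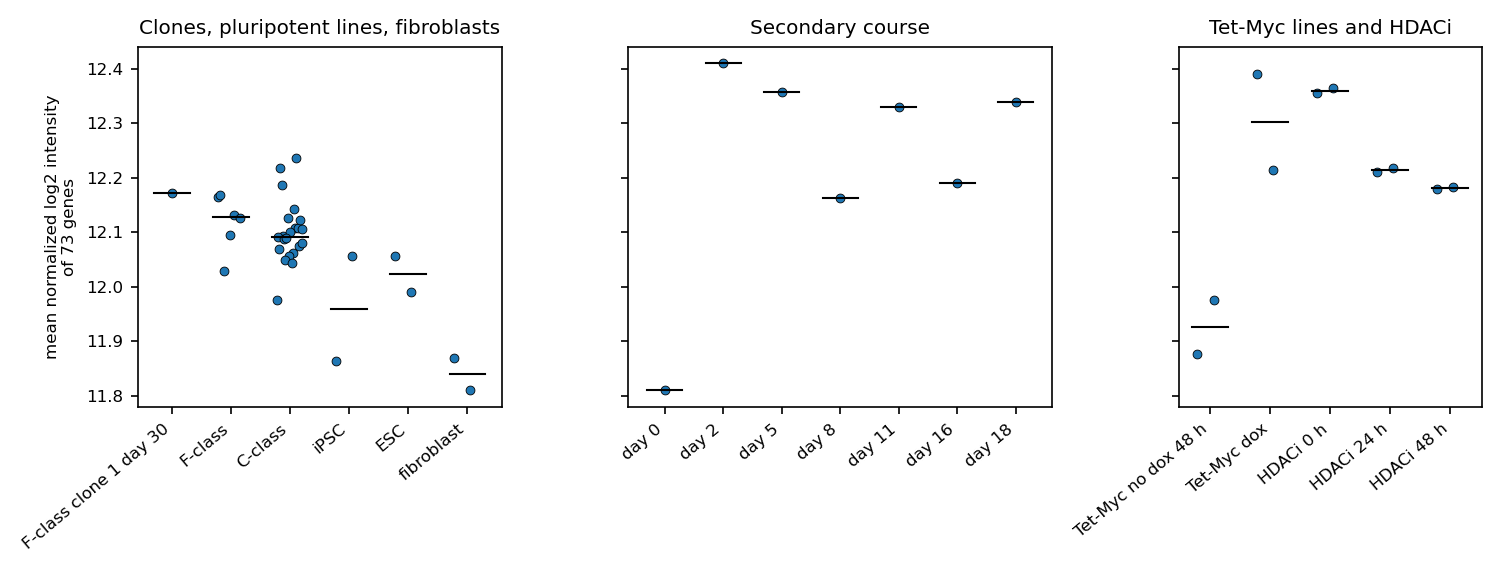
Mean normalized log2 intensity of the 73 respiratory chain genes detected on all 51 arrays. Each point is 1 array and the bar is the group's median; the left panel holds clones, iPSC, ESC and fibroblasts, the middle panel the secondary course by day (day 0 is fibroblast replicate 2), the right panel the Tet-Myc and HDACi arrays. All clones lie above the fibroblasts, whose arrays are at 11.87 and 11.81, and day 2 of the course is the highest point of its panel at 12.41.

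Reprogrammed clones carried more respiratory chain RNA than fibroblasts at many genes and less at a few. Of 78 tested members, 41 were higher and 10 lower in F-class clones than in fibroblasts, where 31.5% of all genes tested were higher and 27.2% lower (limma, Benjamini-Hochberg over all genes, adjusted p under 0.05). In C-class clones 37 were higher and 10 lower, where 31.6% and 28.5% of all genes were. The 10 lower members of each class include Cox6a2 and Cox4i2, which no clone detected. Cox6a2 was tested only because both fibroblast arrays detected it, so it had to differ, and Cox4i2 was tested through 1 fibroblast and 1 ESC array, so neither call is support. Among the 76 members detected in both groups 41 were higher and 8 lower in F-class clones, against 34.9% and 28.3% of all genes so detected, and 37 and 8 in C-class clones, against 32.7% and 31.8%. The members' median difference was 0.33 in F-class clones and 0.27 in C-class clones, against 0.10 and 0.09 over all genes. All F-class arrays lay above both fibroblast arrays at 39 members and below both at 7, against 31.7% and 27% of all genes, and all C-class arrays at 25 and 7, against 22.9% and 20.9%. Both comparisons use the same 2 fibroblast arrays. With the number format as a term the higher and lower members were 30 and 7 in F-class clones, where 28.4% and 25.4% of all genes were, and 27 and 7 in C-class clones, where 27.2% and 26.4% were, and 32 of the 51 F-class calls and 29 of the 47 C-class calls were kept. Against the primary fibroblast array alone, which shares the clones' number format, 22 of 77 members (28.6%) were higher and 4 lower in F-class clones, where 23.4% and 21% of all genes were. In C-class clones 23 (29.9%) were higher and 5 lower, where 22.4% and 22% were. The share of members higher was thus nearer to that of all genes in this fit than with both fibroblast arrays. The number format term rests only on the fibroblast and ESC pairs, since no other group holds both formats. Those pairs also differ as primary and day 0 fibroblasts, and in the macrophage and fibroblast transcripts of ESC replicate 1. A call that ends with the term therefore does not single out the format. Its part in these differences was not tested beyond these fits.

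**Figure D2:**
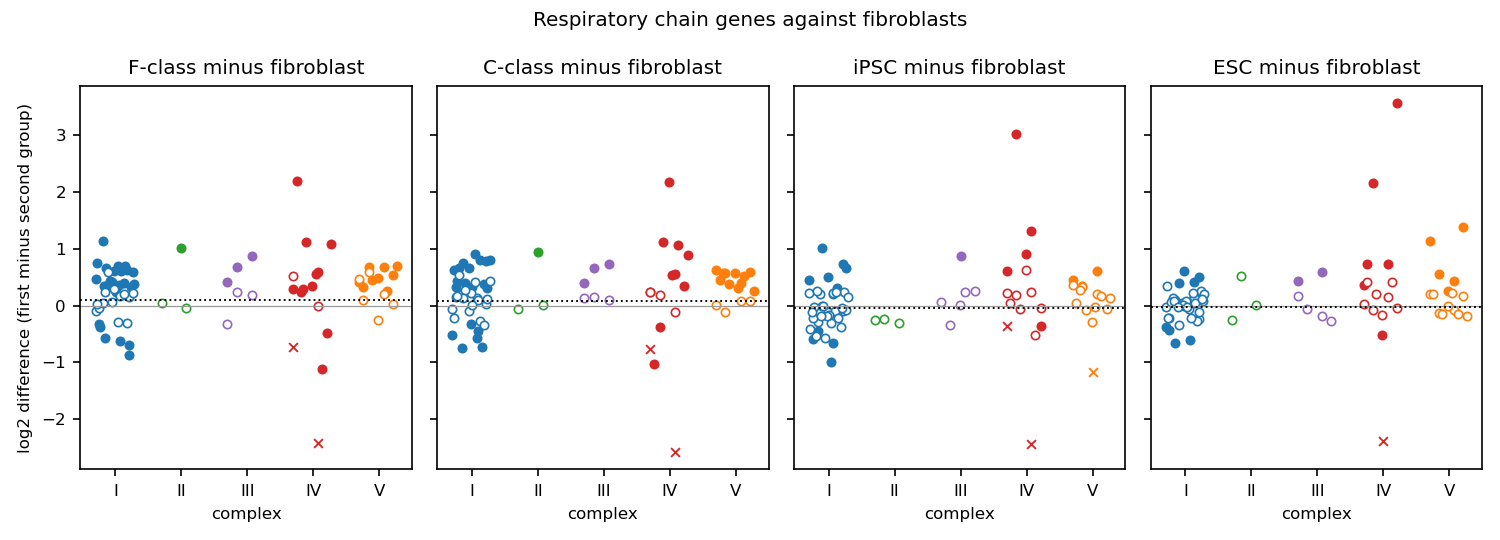
Log2 difference of each tested respiratory chain gene from fibroblasts, by complex, in F-class clones (6 arrays), C-class clones (22), iPSC (2) and ESC (2), each against the same 2 fibroblast arrays. Filled points passed limma at adjusted p under 0.05, open points did not, crosses are genes not detected in 1 of the 2 groups, and the dotted line is the median of all genes tested. Most complex V points of the clones lie above the dotted line, and the highest F-class point is Cox6b2 at 2.20, while the lowest cross in each panel is Cox6a2.

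By complex, with genes placed by symbol, the F-class clones had 19 of 39 complex I members higher and 6 lower. These 39 include the assembly factors, Ndufs5-ps and Ndufa4. Of complex III 3 of 6 were higher, and of complex V 9 of 15. Complex IV had 9 of 15 higher and 4 lower (2 of these being Cox6a2 and Cox4i2). In complex V limma called 0 lower in F-class clones (1 at unadjusted p under 0.05), and 11 of 15 higher and 0 lower in C-class clones (0 at unadjusted p under 0.05). Among the ATP synthase genes, Atp5pb, which encodes the b subunit of the stalk, averaged 12.73 ± 0.11 in F-class clones (SD, n = 6) and 12.04 ± 0.05 in fibroblasts (n = 2), a difference of 0.69 (SE 0.10, limma adjusted p = 3.96e-07). Atp5b rose by 0.42 in F-class clones and 0.39 in C-class clones. Of the 3 genes for the same c subunit of the rotor, Atp5g1 was higher by 0.69 and 0.58 and Atp5g3 by 0.55 and 0.45, while Atp5g2 did not pass (10.69 to 11.13 in F-class and 10.63 to 11.25 in C-class clones, against 11.07 and 10.75 in fibroblasts). The 3 genes therefore differed in this comparison, with Atp5g2 of the clones overlapping the fibroblasts.

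In complex III, Uqcr11, its smallest subunit, ranged from 13.83 to 13.98 (median 13.91) in F-class and from 13.46 to 13.95 (median 13.80) in C-class clones, against 13.15 and 12.90 in fibroblasts. The difference was 0.88 in F-class (SE 0.12, limma adjusted p = 1.02e-07) and 0.73 in C-class clones. The core gene Uqcrc1 ranged from 12.69 to 13.00 in F-class and from 12.52 to 13.08 in C-class clones, against 12.21 and 12.15 in fibroblasts, a difference of 0.67 and 0.66. Neither gene overlapped between the clones and the fibroblasts. In complex II, Sdhd, a membrane anchor, was higher by 1.01 in F-class clones and 0.94 in C-class clones, and both calls ended against the primary fibroblasts alone (0.76 and 0.69). Sdhb and Sdhc did not pass in either class.

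Of the complex I genes, the assembly factor Ndufaf4 was higher by 1.15 in F-class clones and 0.90 in C-class clones. It ranged from 11.75 to 12.25 in F-class clones and from 11.43 to 11.88 in C-class clones, while the fibroblast arrays stood apart at 10.18 and 11.37, and both calls ended without the primary fibroblasts (0.56 and 0.31). Ndufs6, an accessory subunit of the electron input arm, moved with less spread, at 14.21 ± 0.08 in F-class clones (SD, n = 6) and 13.50 ± 0.15 in fibroblasts (n = 2), a difference of 0.71 (SE 0.10, limma adjusted p = 5.05e-07). Ndufa4, counted under complex I by its symbol, was higher by 0.61 in F-class clones and 0.80 in C-class clones. Of those that fell, Ndufa3, an accessory subunit, ranged from 11.88 to 12.18 (median 12.09) in F-class and from 12.05 to 12.33 (median 12.18) in C-class clones, against 12.80 and 13.10 in fibroblasts, differences of -0.88 and -0.75. Ndufv3 fell by 0.69 and 0.73, Ndufa13 by 0.62 and 0.52 and Ndufa2 by 0.57 and 0.57. In F-class clones the Ndufa2 call ended against the primary fibroblasts alone (-0.31). Accessory subunits of the same complex thus differed in direction.

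The largest rise of a member in both classes was at a second isoform of complex IV. Cox6b2, known as the testis form of subunit 6b, ranged from 9.11 to 9.82 (median 9.45) in F-class clones and from 8.67 to 9.93 (median 9.42) in C-class clones, against 6.58 and 7.92 in fibroblasts. Every clone was above both fibroblast arrays, and the fold was 4.60 in F-class (log2 difference 2.20, SE 0.25, limma adjusted p = 5.82e-09) and 4.52 in C-class clones. A second, dim Cox6b2 probe, detected on 7 arrays, showed differences of -0.11 and -0.07. The common form Cox6b1 rose by 0.35 in both classes. Cox6a2, the heart and muscle form of subunit 6a, was detected on both fibroblast arrays (6.74 and 7.79) and on none of the other 49. It was at least 3.14-fold lower in F-class and at least 3.35-fold lower in C-class clones, a bound set against the lowest detected signal of each array and given as a description with no test, since the gene was tested only through the fibroblasts. Striated muscle markers stood beside it, with 4 of 4 detected in fibroblasts at means of 8.14 and 6.82, against 2 of 4 at means of 5.74 to 6.16 in F-class and 5.71 to 6.56 in C-class clones, and their part in the result was not tested.

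The common form Cox6a1 fell by 0.48 in F-class clones and 0.38 in C-class clones, and both calls ended with the number format as a term (-0.24 and -0.14). Cox4i2, the lung form of subunit 4, was detected on 1 of 2 fibroblast arrays (5.71 and 5.20) and in no clone, and no fold is given. Cox4i1 rose by 0.30 and 0.25. Cox7a2, the common form of subunit 7a, rose by 1.12 in both classes (8.63 to 9.32 in F-class and 8.45 to 9.38 in C-class clones, against 8.25 and 7.52 in fibroblasts), and the F-class call ended against the primary fibroblasts alone (0.76). Cox7b rose by 1.09 and 0.89, calls that likewise ended against the primary fibroblasts alone (0.61 and 0.41). Cox6c was lower by 1.13 and 1.03, but its fibroblast arrays were at 11.49 and 13.47 and the primary array lay within the F-class range of 11.03 to 11.88. With the number format as a term the Cox6c differences were -0.26 and -0.17, and neither passed.

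The lists of neighbouring pathways differed in how many of their genes were called in these comparisons. Over all genes tested 31.5% were higher and 27.2% lower in F-class clones, and 31.6% and 28.5% in C-class clones. Of the mitochondrial ribosome genes 59 of 72 were higher and 1 lower in F-class clones (median 0.97), and 55 were higher in C-class clones (median 0.82). With the number format as a term 53 and 51 were higher, where 28.4% and 27.2% of all genes were. Of the regulators of mitochondrial biogenesis 10 of 13 were higher in each class, led in F-class clones by the coactivator gene Ppargc1b (log2 difference 2.72, SE 0.48, limma adjusted p = 1.27e-05) and in C-class clones by Esrrb (4.52), which is also a pluripotency gene. The citric acid cycle had 6 of 11 genes higher and 1 lower in each class, among them Idh3a, a subunit of isocitrate dehydrogenase, by 1.89 and 1.35. Of the cytochrome c and assembly list 7 and 8 of 16 were higher and 1 lower, led by Dhodh, an enzyme of pyrimidine synthesis that feeds electrons to ubiquinone (2.33 and 1.89). The hypoxia list had 4 of 8 higher and 4 lower in F-class clones (median -0.04) and 3 and 4 in C-class clones (median -0.19).

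Pluripotent cells differed from fibroblasts at fewer members. In iPSC 14 of 78 were higher and 7 lower, where 22.7% and 22.5% of all genes were, and in ESC 16 were higher and 6 lower, where 24.7% and 23.8% were. The members' median difference was -0.0042 in iPSC and 0.06 in ESC, against -0.04 and -0.02 over all genes. Cox6a2, detected in fibroblasts only, is 1 of the lower members in each, and Atp5e, not detected in iPSC, is another there. Among members detected in both groups 14 of 75 were higher and 5 lower in iPSC, where 23.3% and 24.9% of all genes so detected were, and 16 of 77 and 5 in ESC, where 24.6% and 27.1% were. Fitted alone, without the clones, the 4 arrays of each comparison gave 2 higher and 1 lower in iPSC and 3 and 1 in ESC, and those higher were Cox7a1 and Uqcrc1 in iPSC and Cox7a1, Cox6b2 and Atp5g2 in ESC, while the 1 lower member was Cox6a2 in each. With the number format as a term the iPSC counts were 12 and 4. ESC and fibroblasts each have 1 array of either format, so the term cannot move their differences. The unchanged ESC counts of 16 and 6 are therefore no check on the format.

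Cox7a1, the heart and muscle form of subunit 7a, was the member with the largest rise in both. It measured 9.62 and 9.14 in iPSC and 10.00 and 9.85 in ESC, against 7.16 and 5.55 in fibroblasts. All pluripotent arrays lay above both fibroblast arrays, by 8.13-fold in iPSC (log2 difference 3.02, SE 0.60, limma adjusted p = 0.000117) and 11.8-fold in ESC (3.57, SE 0.60, adjusted p = 9.38e-06). In the clones it ranged from 6.38 to 7.38 (median 6.80) in F-class, where the difference from fibroblasts did not pass (0.51, SE 0.49, limma adjusted p = 0.384). In C-class clones it ranged from 6.45 to 9.36 (median 7.44), a difference of 1.08 (adjusted p = 0.0355) that ended with the number format as a term (0.64). Cox7a2 did not pass in iPSC (7.41 and 8.46) or ESC (8.16 and 8.46).

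Further members rose in the pluripotent lines. Cox6b2 was at 8.50 and 8.62 in iPSC and at 9.58 and 9.24 in ESC, higher than in fibroblasts by 1.31 and 2.16. The iPSC call ended without the primary fibroblasts (0.64). Atp5g2 stood at 11.37 and 11.66 in iPSC and at 12.32 and 12.28 in ESC, against 11.07 and 10.75 in fibroblasts, a difference of 0.61 in iPSC and 1.39 in ESC (SE 0.17 in both, limma adjusted p = 0.00378 and 4.26e-08). The iPSC call for Atp5g2 ended against the primary fibroblasts alone (0.45). Atp5a1, the alpha subunit of ATP synthase, was higher in ESC by 1.14 (adjusted p = 0.00226). Cox7c rose by 0.90 in iPSC and 0.73 in ESC, Cox5a by 0.60 and 0.73, Ndufa7 by 0.51 and 0.62, and Uqcrc1 by 0.87 and 0.58, of which the ESC call ended without ESC replicate 2 (0.37). Ndufa4 rose by 0.73 and 0.51, and its ESC call likewise ended without ESC replicate 2 (0.27). Ndufaf4 rose by 1.02 in iPSC, a call that ended with the number format as a term (0.38) or without the primary fibroblasts (0.43).

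The genes that fell in the pluripotent lines were few. Ndufa3 fell by 0.44 in iPSC and 0.65 in ESC and Ndufa13 by 0.65 and 0.37, genes that were also lower in the clones. Cox7a2l, which helps tie complexes III and IV into supercomplexes, fell by 0.35 and 0.52. Of these, Ndufa3 in iPSC (-0.18), Cox7a2l in both (-0.29 in iPSC and -0.33 in ESC) and Ndufa13 in ESC (-0.12) lost their calls when 1 pluripotent array was left out. Atp5e, the epsilon subunit of ATP synthase, was not detected on either iPSC array and was at least 1.96-fold lower there, but its fibroblast arrays were at 7.06 and 5.62 and the call ended with the number format as a term (-0.49). Ndufb4 fell by 0.99 in iPSC, a call that also ended with that term (-0.57). As a description with no test, Cox6a2, not detected in these lines, was at least 3.72-fold lower in iPSC and at least 3.86-fold lower in ESC. Beside it 3 of 4 striated muscle markers were detected at means of 6.61 and 6.49 in iPSC and 6.52 and 6.54 in ESC.

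**Figure D3:**
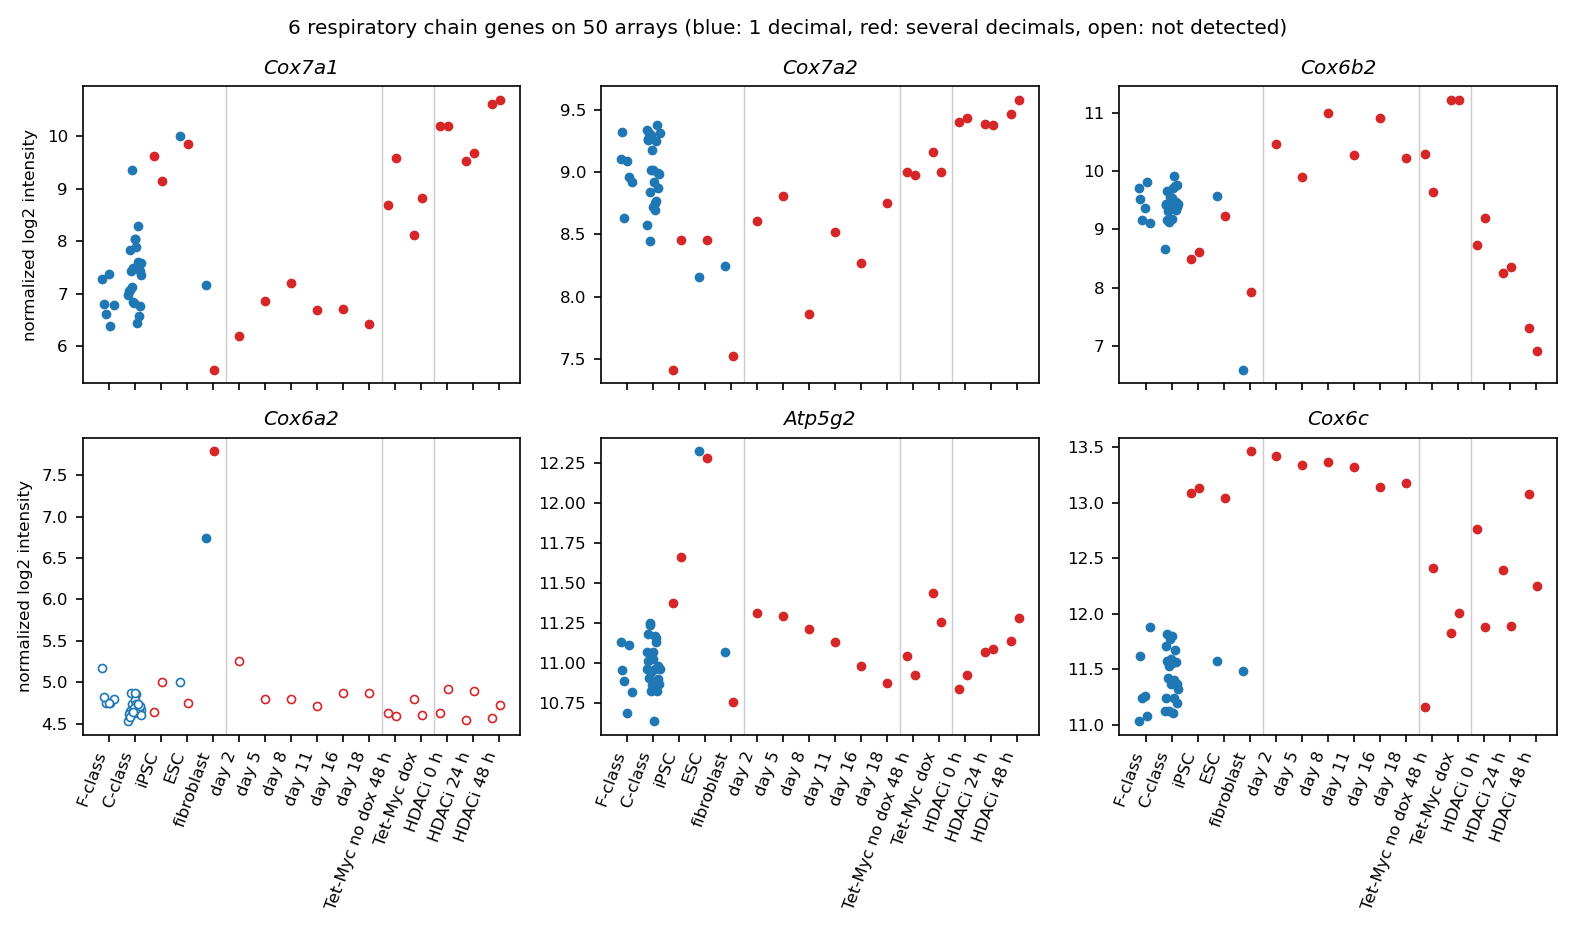
Normalized log2 intensity of Cox7a1, Cox7a2, Cox6b2, Cox6a2, Atp5g2 and Cox6c on 50 arrays (all but clone 1 at day 30). Points are arrays, blue where the deposited intensities have 1 decimal and red where they have several, open where the probe was not detected; the fibroblast column includes day 0 of the secondary course. Cox7a1 and Atp5g2 are higher in ESC than in every day 16 clone, Cox6a2 is detected in fibroblasts only, and the fibroblast and ESC points of Cox6c part by colour.

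Between the 2 classes of clones few members differed. In F-class clones 6 of 78 were higher and 2 lower than in C-class clones, where 14.1% and 10.6% of all genes were, and the median difference of 0.03 equalled that of all genes. Ndufa12, an accessory subunit of complex I, ranged from 12.53 to 12.78 (median 12.59) in F-class and from 12.15 to 12.49 (median 12.33) in C-class clones. It was the 1 member for which every F-class clone lay above every C-class clone, a pattern seen in 1.38% of all genes, and 0 members showed the opposite, seen in 0.679% (log2 difference 0.26, SE 0.07, limma adjusted p = 0.00326). Uqcrb, a small subunit of complex III, was lower, at 10.86 to 11.49 (median 11.13) in F-class and 11.09 to 12.16 (median 11.61) in C-class clones (-0.46, SE 0.13, adjusted p = 0.00948), with overlapping ranges. The remaining calls were of 0.18 to 0.23 in size: Ndufaf5, Ndufa5, Atp5c1, Ndufc2 and Ndufv2 were higher and Ndufa4 lower. Without clone 1 the counts were 1 and 1, and without clone 2 or clone 7 they were 3 and 1. Cox7a1 did not pass (-0.56, adjusted p = 0.135), and the brightest C-class value of 9.36 lay below both ESC arrays.

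Against ESC, F-class clones had 26 of 78 members higher and 8 lower (25.4% and 22.5% of all genes), and C-class clones 26 higher and 7 lower (22.8% and 22.3%). The median difference was 0.14 in F-class clones and 0.10 in C-class clones, against 0.05 and 0.03 over all genes, and both comparisons use the same 2 ESC arrays. The lower members include Cox4i2, which no clone detected. Without ESC replicate 2, which leaves the array that shares the clones' number format, 17 of 78 (21.8%) were higher and 7 lower in F-class clones, where 19.2% and 17.5% of all genes were, and 10 (12.8%) higher and 6 lower in C-class clones, where 14.7% and 15.2% were. The shares of members higher in that fit were therefore close to those of all genes. With the number format as a term 19 were higher and 7 lower in F-class clones (20.8% and 19.8% of all genes), and 17 and 6 in C-class clones (16.5% and 18%). ESC replicate 1 is the array that carried macrophage and fibroblast transcripts, and without it 25 were higher and 6 lower in F-class clones (21.5% and 19.4% of all genes), and 23 and 6 in C-class clones (19.2% and 19.5%).

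The isoform genes gave the largest differences here too. Cox7a1 was 8.29-fold lower in F-class clones than in ESC (log2 difference -3.05, SE 0.49, limma adjusted p = 7.2e-06) and 5.61-fold lower in C-class clones, and no clone reached the ESC levels given above. Pluripotency markers differed beside it, with means of 8.39 to 10.33 in F-class and 6.63 to 11.68 in C-class clones, against 13.09 and 13.30 in ESC, and their part was not tested. Atp5g2 was 2.59-fold lower in F-class (-1.37, SE 0.14, adjusted p = 2.24e-09) and 2.47-fold lower in C-class clones, again with no overlap. Atp5a1 fell by 0.66 in F-class clones, a call that ended without ESC replicate 2 (-0.50) or with the number format as a term (-0.63), and Ndufv3 by 0.67 and 0.71, calls that ended without ESC replicate 1 (-0.19 and -0.23). Of those that were higher, Ndufc2 of complex I ranged from 13.41 to 13.48 in F-class and from 13.05 to 13.54 in C-class clones, against 12.76 and 12.65 in ESC (0.75 and 0.56). Ndufab1, the mitochondrial acyl carrier protein, was higher by 0.93 and 1.14, Ndufb6 by 0.57 and 0.62, Atp5o, the stalk subunit that joins the catalytic head of ATP synthase to its membrane part, by 0.62 and 0.48, and Atp5d by 0.76 and 0.65. The C-class call for Atp5d ended without ESC replicate 2 (0.50). Ndufaf4 was higher by 1.01 and 0.76, but ESC replicate 1 was at 10.22 and replicate 2 at 11.61, and both calls ended without replicate 1 (0.31 and 0.07).

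The secondary course has 1 array a day, so its differences from day 0 have no test and are counted past 1.5-fold. The share of members past this fold varied by day. At day 8 the share of members higher was close to that of all genes, and at day 16 it was only a little above it. At day 2, 41 of 78 members were past 1.5-fold higher and 1 lower, where 26.8% and 24.4% of all genes were. At day 5 the counts were 29 and 1 of 77 (26.5% and 26.5% of all genes), at day 8 they were 19 and 5 of 78 (25% and 26.3%), at day 11 they were 31 and 1 of 77 (29.2% and 27.6%), at day 16 they were 27 and 2 of 77 (31.1% and 27.7%), and at day 18 they were 39 and 3 of 77 (32.2% and 28.2%). The median difference was 0.60, 0.48, 0.32, 0.49, 0.38 and 0.59 in day order, while that of all genes ran between -0.02 at day 8 and 0.11 at day 18. Of 79 members detected on at least 1 of these arrays, 51 (64.6%) were above day 0 on all 6 later days and 4 (5.06%) below on all of them, against 29.5% and 27.9% of all genes. All later days are set against the 1 day 0 array, which had the lowest mean of the members among all 51.

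**Figure D4:**
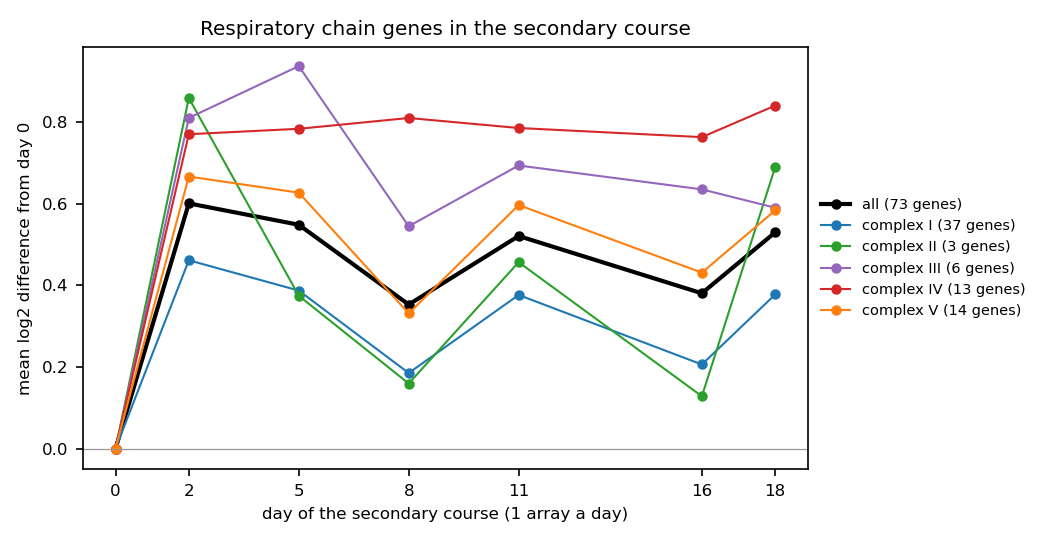
Mean log2 difference from day 0 of the respiratory chain genes detected on all 51 arrays, by complex, over the secondary course (1 array a day, so no error can be shown). The black line is the mean of all 73 genes, which is 0.60 at day 2, 0.35 at day 8 and 0.53 at day 18; every line stays above 0 after day 0.

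Named members followed separate courses. Cox6b2 was at 7.92 at day 0 and at 10.48, 9.90, 11.00, 10.29, 10.92 and 10.23 at days 2, 5, 8, 11, 16 and 18, above every day 16 clone's highest value of 9.93 at all days but day 5. Uqcrc1 was at 12.15 at day 0 and at 13.36, 13.53, 13.61, 13.55, 13.64 and 13.61 at the later days, also above the highest clone. The arrays of the course and of the clones differ in number format throughout, which cannot be told apart from the cells in these comparisons. Cox6a2 was at 7.79 at day 0 and was not detected from day 2 on, while striated muscle marker means ran between 4.94 at day 2 and 5.79 at day 11, against 6.82 at day 0. Among the later arrays Cox7a1 ranged from 6.19 to 7.21 with no order by day, below both iPSC and both ESC arrays, and the day 18 value was 6.42. Sdhc stood at 11.83 at day 0 and between 11.48 and 12.24 later, so that it crossed its start, while Sdhb was above its start of 11.02 at every later day, between 11.18 and 11.81. Fibroblast marker means were lower at each later day, with 9.80 at day 2 and 7.50 at day 18, and their part in these values was not tested.

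Clone 1 changed little between day 16 and day 30. At day 30, 2 of 76 members were past 1.5-fold higher and 1 lower than at day 16, where 6.99% and 7.01% of all genes were, and the median difference was -0.01. The members were Sdhd, at 9.79 at day 30 and 8.77 at day 16, Ndufb2, which was higher by 0.76, and Cox7a1, at 6.43 and 7.28. With quantile normalization or the authors' scaled values 1 was higher and 0 lower (no test, 1 array each).

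Withdrawal of doxycycline from the Tet-Myc lines for 48 h went with lower levels of most members. In cells without doxycycline 14 of 76 tested members were lower, where 7.92% of all 10154 genes were, and limma called 0 higher (7.38% of all genes; 0 members at unadjusted p under 0.05, with 37 lower). The median difference was -0.37, against -0.02 over all genes. For 53 of the 76 members both arrays without doxycycline lay below both arrays with it, a pattern of 27.3% of all genes, and for 1 member both lay above, a pattern of 23.8%. Within the lines, 60 members were lower without doxycycline in both, against 36.4% of all genes, with medians of -0.48 in line 1 and -0.25 in line 2. The replicate numbers name the 2 lines and so pair the arrays. With the line as a replicate block, in a fit of only the 4 Tet-Myc arrays, limma called 0 of 9148 genes, members included. In that fit 8 members were lower and 1 higher at unadjusted p under 0.05 (smallest limma adjusted p = 0.109). Left out in turn, single arrays moved the lower count to 2 without line 1 with doxycycline, 5 without line 1 at 48 h and 23 without line 2 at 48 h, and in the fit of these 4 arrays alone it was 0.

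In the fit of all 10 arrays, without the line as a block, all 5 complexes had members called lower. With the block, in the fit of only the Tet-Myc arrays, every one of these 14 calls was lost. The fit of those arrays alone, given above, lost them too. The values that follow are from the fit of all 10 arrays without the block. The spread in that fit is shared with the HDACi pairs, which correlated at 0.993 to 0.995 over genes. The Tet-Myc pairs correlated at 0.965 with doxycycline and 0.961 without it. In complex V, Atp5o measured 9.38 and 9.75 without doxycycline, against 10.85 and 10.69 with it, a log2 difference of -1.20 (SE 0.17, limma adjusted p = 0.00601 without the block). The differences of Atp5d and Atp5e were -0.70 and -0.66. In complex II, Sdhb was at 10.22 and 10.81 without doxycycline, against 11.45 and 11.14 with it (-0.78), and Sdhc at 12.61 and 12.39, against 13.41 and 13.16 (-0.79). Both lines moved the same way in these genes. In complex IV, Cox6b2 was at 10.30 and 9.64, against 11.24 and 11.23 (-1.27, SE 0.26, adjusted p = 0.0212 without the block), and the differences of Cox7b and Cox7a2l were -1.25 and -1.12. In complex III they were -0.64 for Uqcrh, the hinge protein, -0.58 for Uqcr11 and -0.53 for the core gene Uqcrc2. In complex I they were -0.60 and -0.59 for Ndufs3 and Ndufs7, core subunits of the hydrophilic arm, and -0.60 for Ndufc2. Cox8a, the common form of subunit 8, was at 13.61 and 13.65 without doxycycline, against 14.43 and 14.00 with it, a difference of -0.59 that did not pass without the block either (adjusted p = 0.0583). Cox7a1 did not pass either (8.69 and 9.59 without doxycycline, against 8.11 and 8.82 with it, adjusted p = 0.198).

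The Myc gene itself has 2 probes on the array, of which 1 was not detected on any Tet-Myc array. The other was at 5.93 in line 1 and 6.57 in line 2 without doxycycline, against 6.83 and 6.37 with it, so it did not move the same way in both lines, and whether it reads the transgene is not stated in the labels. Of neighbouring lists, also in the fit without the block, 13 of 72 mitochondrial ribosome genes and 6 of 13 biogenesis regulators were lower without doxycycline (Ppargc1b by -2.72, limma adjusted p = 0.00769). So were 5 of 16 cytochrome c and assembly genes and 3 of 11 citric acid cycle genes, where 7.92% of all genes were lower. Pluripotency markers moved too, with means over 6 genes of 11.66 and 11.94 without doxycycline, against 9.94 and 10.42 with it, and their part in the members' change was not tested.

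The HDACi comparison asks what the inhibitor does to F-class cells. At 24 h limma called 0 of 76 members either way, where 0.965% of all genes were higher and 1.12% lower, with 1 higher and 10 lower at unadjusted p under 0.05. The median difference was -0.16, against -0.000465 over all genes, and 46 members had both 24 h arrays below both 0 h arrays and 8 above, patterns of 31.1% and 29.5% of all genes. At 48 h 14 members were lower and 1 higher than at 0 h, where 14.5% and 14.2% of all genes were. The median was -0.19, against 0.02 over all genes, and 44 members lay wholly below and 18 wholly above, against 37% and 38.1% of all genes. Both times are set against the same 0 h arrays. Leaving out any 1 of the 4 arrays of the 48 h comparison left 3 to 5 members lower and 0 higher.

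Cox6b2 was at 8.73 and 9.19 at 0 h, at 8.24 and 8.35 at 24 h and at 7.30 and 6.91 at 48 h, the largest fall of a member (-1.86 at 48 h, SE 0.26, limma adjusted p = 0.0022). Its levels did not overlap between the 3 times. Cox7a2l was at 12.83 and 13.01 at 0 h, at 12.26 and 12.44 at 24 h and at 11.68 and 11.58 at 48 h (-1.29 at 48 h, SE 0.19, adjusted p = 0.00285), and the 24 h difference of -0.57 did not pass (adjusted p = 0.196). Cox6a1 fell by 0.77, Ndufa13 by 0.71, Ndufa4 by 0.66, Ndufb6 by 0.65, Uqcrh and Ndufs4 each by 0.60, Cox6b1 by 0.57, Atp5e by 0.56, Ndufc2 by 0.55 and Atp5d by 0.48 at 48 h. Ndufs4 has 4 probes, and with their mean it did not pass (-0.33). The 1 member that rose was Uqcrb, at 10.60 and 10.71 at 0 h, 10.89 and 11.22 at 24 h and 11.18 and 11.44 at 48 h (0.66, SE 0.17, adjusted p = 0.0248). In complex II, Sdhc was at 12.52 and 12.51 at 48 h, against 12.90 and 13.04 at 0 h, and Sdhb at 10.79 and 10.88, against 11.31 and 11.27. Neither passed (-0.45 in both, adjusted p = 0.0642 and 0.154), although the arrays did not overlap. The rotor gene Atp5g1 was above its 0 h arrays at 48 h, at 14.24 and 14.51, against 13.83 and 13.84, and did not pass (0.54, limma adjusted p = 0.0717). Cox6a1, Cox6b2 and Cox7a2l kept their calls whichever of the 4 arrays was left out.

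**Figure D5:**
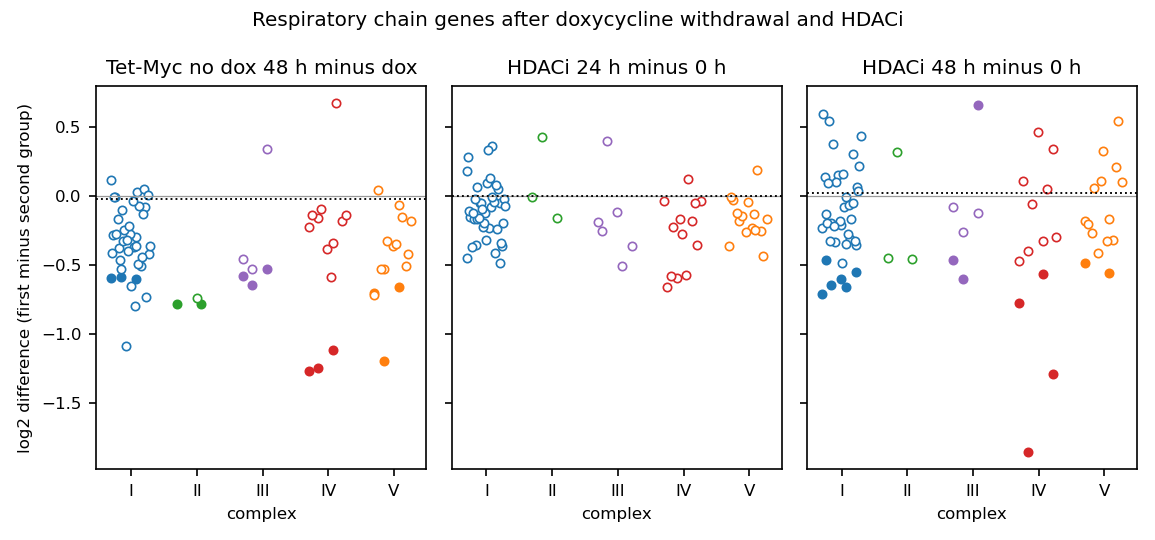
Log2 difference of each tested respiratory chain gene, by complex, in Tet-Myc lines 48 h without doxycycline against with doxycycline, and in F-class cells at 24 h and 48 h of HDACi against 0 h (2 arrays a group). Filled points passed limma at adjusted p under 0.05 in the fit of all 10 arrays, which has no block for the line. Open points did not, and the dotted line is the median of all genes tested. In a fit of only the Tet-Myc arrays with that block no Tet-Myc point passed. The lowest points at 48 h of HDACi are Cox6b2 at -1.86 and Cox7a2l at -1.29.

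The cells of the HDACi experiment stood apart from the day 16 F-class clones at Cox7a1. Their arrays differ from those of the clones in number format throughout and share no fit with them, so the format and the cells cannot be told apart. Cox7a1 was 10.20 on both 0 h arrays, 9.53 and 9.68 at 24 h and 10.63 and 10.70 at 48 h, above the highest F-class clone at 7.38. The 48 h difference from 0 h did not pass (0.47, SE 0.32, limma adjusted p = 0.324). Pluripotency marker means were 11.09 and 9.14 over 6 genes on the 0 h arrays, 10.92 and 10.88 at 24 h and 12.82 and 12.79 at 48 h, and their part in the members' values was not tested. The mitochondrial ribosome list had 6 of 72 genes higher and 3 lower at 48 h, and the biogenesis regulators 4 of 13 higher and 1 lower. Over all genes 14.2% were higher and 14.5% lower at that time.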

How the data were processed

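Each sample was hybridised to 1 Illumina MouseRef-8 v2.0 array. The main table holds probe intensities that the authors deposited as not normalized, with scanning and summarization not stated in the labels. Each probe carries a detection p-value per array, per the file headers. A second deposited table holds the authors' scaled intensities, whose scaling method the labels do not state, and it served only as an alternative.

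The neqc function of limma 3.58.1 (R 4.3.3, offset 16) corrected the background from the detection p-values and quantile normalized the arrays. Of 25697 probes, 23978 carried 1 gene symbol, 0 several and 1719 none. Each of 16593 genes was read by its brightest probe, and all 85 members matched RefSeq by symbol. Genes entered a fit when 2 or more arrays detected them (detection p under 0.05). Counts among genes detected in both groups compared were added after the data were seen. One limma fit held fibroblasts, clones, iPSC and ESC (34 arrays, 11046 genes), another the Tet-Myc and HDACi arrays (10 arrays, 10154 genes). Benjamini-Hochberg adjustment ran over all genes of a fit. All groups of a fit share 1 estimate of each gene's spread. Most arrays of the first fit are clones, so its p-values for fibroblasts, iPSC and ESC rest mainly on the spread between clones. In the second fit the Tet-Myc p-values also draw on the HDACi arrays. The clones and the Tet-Myc arrays are separate lines. Beyond the named lines the labels do not state separate cultures or animals within a group, so that spread may be technical. The number of arrays limits the precision. The fit was tested on simulated data.

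The genes named were, in each comparison, the called members with the 10 largest rises and falls, the isoform sets, the complex II genes and the brightest member of each complex, and from each pathway list the called gene with the largest change each way. Members, lists and this rule were chosen with earlier results of these data known. Deviations from the group means of Tet-Myc arrays of the same line correlated at 0.50, and the numbers pair them because each is a line. Those of same-numbered HDACi arrays correlated at 0.26, 0.09 and 0.08, and these share only a number. Alternatives were quantile normalization without background correction, the authors' scaled values, other detection filters, the mean of a gene's probes, fits of only the groups compared, the number format as a term, the replicate block and leaving out single arrays.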

Additional observations from a re-analysis of the deposited data

Results flagged for a closer look

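Dixon's test was run on 76 members over the 6 F-class clones, and 5 had 1 clone far from the rest, where chance flags about 1 in 20 genes. Atp5c1, the gamma subunit of ATP synthase, was at 14.0959 in clone 7 and at 13.7987 in the next clone, a gap of 0.825 of the range. Ndufa12 was at 12.7824 in clone 27 and 12.6024 in the next (0.713 of the range). In clone 1, Ndufa7 was at 13.5143 with the next clone at 13.3555 (0.656), and Ndufb8 at 14.3019 with the next at 14.0395 (0.635). Ndufc2 was lowest in clone 27, at 13.4113 with the next at 13.4589 (0.673). The difference of Atp5c1 between F-class and C-class clones was 0.15 without clone 7 and did not pass, nor did it without clone 1, 6, 13 or 27 (0.21 in each), while that of Ndufa12 passed whichever F-class clone was left out.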

How the results depend on the processing

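Of 1714 checks of single named genes, 1473 kept direction and call, 241 lost the call and 0 turned direction. Leaving out 1 array at a time, the members higher and lower than in fibroblasts numbered 22 to 42 and 4 to 11 in F-class clones, 23 to 36 and 5 to 9 in C-class clones, 12 to 17 and 4 to 9 in iPSC and 13 to 17 and 3 to 7 in ESC. F-class clones had 1 to 5 higher and 1 to 2 lower than C-class clones, and 17 to 27 and 6 to 9 against ESC, while C-class clones had 10 to 23 and 6 to 6 against ESC. Tet-Myc cells without doxycycline had 0 to 1 higher and 2 to 23 lower, and HDACi cells 0 to 0 either way at 24 h and 0 to 0 higher and 3 to 5 lower at 48 h. The median member difference ranged from 0.21 to 0.41 for F-class, 0.16 to 0.38 for C-class, -0.09 to 0.11 for iPSC and 0.01 to 0.18 for ESC against fibroblasts, 0.02 to 0.05 for F-class against C-class, 0.10 to 0.20 and 0.06 to 0.17 for F-class and C-class against ESC, -0.44 to -0.26 for Tet-Myc, and -0.15 to -0.12 and -0.22 to -0.16 for HDACi at 24 and 48 h. Fits of only the groups compared gave 6 lower in F-class clones against fibroblasts, 2 higher and 1 lower in iPSC, 3 higher and 1 lower in ESC, 4 lower in F-class clones against ESC, 0 lower in Tet-Myc cells without doxycycline, 6 lower at 24 h and 4 higher at 48 h of HDACi, with fewer arrays behind each spread. The number format as a term gave 4 lower in iPSC and 17 higher in C-class clones against ESC. Quantile normalization gave 1 lower at 24 h and 2 higher at 48 h of HDACi, and the authors' scaled values 1 and 2, with 24 lower in Tet-Myc cells without doxycycline. With the replicate block, fitted to each experiment's arrays alone, 0 were lower in Tet-Myc cells, a paired result given with its comparison. In HDACi cells, whose arrays share only a number, it gave 0 higher and 6 lower at 24 h (9.12% and 10% of all genes). At 48 h it gave 8 higher and 28 lower of 76 members (27.1% and 27.9% of all genes). At 2-fold in the secondary course 13, 11, 6, 11, 4 and 10 members were higher at days 2, 5, 8, 11, 16 and 18, and 1 lower at each of days 8, 16 and 18. At day 8, 3 were lower with quantile normalization and with the authors' scaled values. At day 30 of clone 1, 1 was higher and 0 lower with quantile normalization, the authors' scaled values or the 2-fold threshold. Counts of lower members against fibroblasts or ESC include Cox6a2 and Cox4i2 where these were called. Beyond the fits named, the cause of these changes was not tested. Each group but the clones has 1 or 2 arrays, and 12 members were not detected on every array, where a dim probe gives only a bound.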
